A study of Mus musculus with 20 samples.

Results

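Imprinted growth genes were followed from birth into adulthood in cells of the mouse dentate gyrus (DG) and after knockdown of the histone methyltransferase Setd8 in cultured neural stem cells (NSCs). The 10 genes, Dlk1, Meg3, Rian, Peg3, Plagl1, Grb10, Mest, Ndn, H19 and Impact, were taken by gene symbol. The scRNA-seq data covered 27998 genes, of which 9 were members, and Rian was not analysed here in that assay, whereas all 10 were among the 24062 symbols of the RNA-seq tables. In vivo, EGFP-positive cells were sorted from the microdissected DG of C57BL/6-background mice with the Nestin-EGFP transgene at postnatal day 5 (P5), 12 weeks (12w) and 24 weeks (24w), with 1 scRNA-seq and 1 scATAC-seq library per age and 7-AAD to remove dead cells. The transgene places EGFP under Nestin control, which also labels vascular cells, and neither the number of animals per library nor their sex was given in the labels. In vitro, NSCs infected with lentivirus carrying a control or a Setd8 shRNA were kept under puromycin and collected, by the labels, 3 days after infection, whereas the grouped values used below to assign the libraries are headed Day2. The labels call these cells hippocampal, whereas the methods describe a line from embryonic cortex after many passages.

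An imprinted gene is expressed mainly from a single parental copy, and the choice of copy goes back to DNA methylation laid down in the egg or the sperm at control regions of the gene cluster. Many such genes act on growth before and shortly after birth, and several of them are part of a network whose transcripts decline in many organs as growth slows. Dlk1 encodes a membrane protein related to Notch ligands that is expressed from the paternal copy, and its neighbours Meg3 and Rian are long noncoding RNAs expressed from the maternal copy of the same cluster. Peg3 and Plagl1 encode zinc finger proteins, Grb10 an adaptor that dampens insulin and growth factor receptor signalling, Mest a protein of the hydrolase family and Ndn the MAGE family protein necdin. H19 is a maternally expressed long noncoding RNA, and Impact encodes a protein that restrains the translational stress kinase Gcn2. Dlk1 is known as a factor that NSCs and the cells of their niche use in postnatal neurogenesis.

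On mm10, Dlk1 lies at chr12:109452823-109463336, Meg3 at chr12:109541001-109571726 and Rian at chr12:109603940-109661716, all on the plus strand. Mest lies on the plus strand at chr6:30723547-30748465, Plagl1 at chr10:13060504-13131694 and Ndn at chr7:62346569-62350262. On the minus strand are Grb10 at chr11:11930508-12038683, Peg3 at chr7:6703892-6730431 and H19 at chr7:142575529-142578143. The promoters below, from RefSeq on GRCm38.p6, are shown because the starts of these genes carried the differences in RNA or in accessibility described later. Each runs 5′ to 3′ on the strand of its gene from 250 bases before to 50 after the annotated start. Capitals mark TGCCGC read on either strand, the hexamer bound by ZFP57 when methylated, which keeps imprints in the early embryo. The windows are chr12:109452573-109452872 for Dlk1, chr12:109540746-109541045 for Meg3, chr6:30737800-30738099 for Mest and chr11:12037371-12037670 for Grb10.
Dlk1: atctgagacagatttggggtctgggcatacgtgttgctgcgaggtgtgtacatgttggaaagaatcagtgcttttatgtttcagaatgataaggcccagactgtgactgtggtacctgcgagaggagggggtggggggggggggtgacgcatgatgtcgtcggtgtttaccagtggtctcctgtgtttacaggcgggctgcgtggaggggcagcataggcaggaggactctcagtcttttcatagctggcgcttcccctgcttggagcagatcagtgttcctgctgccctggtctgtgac
Meg3: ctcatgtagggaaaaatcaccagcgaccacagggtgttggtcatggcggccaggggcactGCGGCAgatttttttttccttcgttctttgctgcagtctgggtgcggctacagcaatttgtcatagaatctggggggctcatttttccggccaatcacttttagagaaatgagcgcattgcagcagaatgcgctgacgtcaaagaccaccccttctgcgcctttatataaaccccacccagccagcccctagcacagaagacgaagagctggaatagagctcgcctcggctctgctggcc
Mest: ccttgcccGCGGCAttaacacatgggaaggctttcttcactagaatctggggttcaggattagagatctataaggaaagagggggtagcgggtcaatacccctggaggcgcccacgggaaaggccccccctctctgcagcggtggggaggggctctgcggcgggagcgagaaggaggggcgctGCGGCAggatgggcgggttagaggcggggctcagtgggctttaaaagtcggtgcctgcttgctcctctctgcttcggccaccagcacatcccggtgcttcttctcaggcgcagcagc
Grb10: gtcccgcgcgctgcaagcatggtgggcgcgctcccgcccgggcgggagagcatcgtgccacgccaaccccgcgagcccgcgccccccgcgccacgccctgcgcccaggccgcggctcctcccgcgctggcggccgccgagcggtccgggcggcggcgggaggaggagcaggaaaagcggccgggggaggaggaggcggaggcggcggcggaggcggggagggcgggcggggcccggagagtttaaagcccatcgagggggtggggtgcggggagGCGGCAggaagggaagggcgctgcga
The hexamer was absent from the Dlk1 window, occurred 1 time in Meg3, where it began 190 bases before the start, and 2 times in Mest, where the copies began 242 and 67 bases before the start. In Grb10 it occurred 1 time, 24 bases after the start. Of 32851 promoters of this length, 11.6% held the hexamer. The windows held 9, 13, 17 and 45 CG dinucleotides in this order, against a median of 7. The Meg3 window also held TATAAA beginning 25 bases before its start, a motif found in 8.32% of all windows. RefSeq lists further starts for 3 of these genes. The hexamer was absent from the windows of the upstream Mest start at chr6:30733256-30733555, the downstream Meg3 start at chr12:109545148-109545447 and the downstream Grb10 start at chr11:12027922-12028221, with 8, 1 and 9 CG dinucleotides, and a Mest start 3 bases from the one printed held the same 2 copies. These matches are a description and show no binding.

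After filtering, 12752, 5271 and 2794 cells remained at P5, 12w and 24w, with a median of 4261, 2271 and 2178 UMIs per cell. Cells were clustered and named from marker genes, and each name below stands for cells like that type. NSC-like cells numbered 1260, 391 and 107 in the order of age, and astrocyte-like (AS-like) cells 3213, 328 and 112. Pericyte-like (PC-like) cells numbered 358, 2426 and 1736, and vascular smooth muscle-like (VSMC-like) cells 67, 463 and 266. The summed level of the markers of each of these classes was higher in it than in any other class at each age. Age was mixed with sex in these libraries, since 92.4% of cells at 12w had Xist and no Y-linked UMI, whereas at 24w 29.5% had Y-linked UMIs without Xist and 0.0358% the reverse. At P5 both kinds were present, with 20.1% and 31.8% of cells. The libraries shared 86, 57 and 26 cell barcodes between pairs.

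With 1 library per age there was no test between ages. UMIs were summed per class and age as counts in every 1000000 UMIs of that class (CPM), and all intervals given here are 95% intervals that cover counting error only. A gene counted as higher or lower when each adult library, 12w and 24w alike, lay 2-fold or more from P5 on the same side, the interval of each ratio left out 1, and at least 20 UMIs stood behind the higher level. In bulk or summed values, fewer expressing cells and less RNA per cell cannot be told apart.

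The share of all genes that met the rule differed widely between classes, and the members' counts are read against it. In NSC-like cells 3.24% of genes tested were higher and 2.83% lower, and of 7 members with enough UMIs 1 was higher, Impact, and 1 lower, Meg3. In AS-like cells the shares were 2.89% and 3.60%, in neural progenitor-like (NPC-like) cells 0.775% and 1.47%, in earlier immature neurons (IMN1-like cells) 1.59% and 1.09% and in later immature neurons (IMN2-like cells) 1.43% and 1.16%, and no member passed in these 4 classes among 7, 7, 6 and 5 with enough UMIs. In PC-like cells 13.9% were higher and 8.21% lower, and of 7 members 1 was higher and 4 were lower, Dlk1, Meg3, Mest and Ndn. In VSMC-like cells 16.2% were higher and 6.39% lower, and of 6 members 1 was higher and 4 were lower, Dlk1, Meg3, Grb10 and Mest. The members' median log2 ratio was −1.53 and −1.23 for PC-like cells, against 0.19 and 0.24 over all genes. In VSMC-like cells it was −2.30 and −3.24, against 0.23 and 0.31. It was −0.33 and −0.82 in NSC-like cells, against 0.05 and 0.12, −0.48 and −0.23 in AS-like cells, against 0.04 and 0.12, and −0.56 and −0.17 in NPC-like cells, against 0.04 and 0.15. In IMN1-like cells it was 0.18 and 0.27, against 0.15 and 0.17, and in IMN2-like cells −0.07 and 0.33, against 0.14 and 0.17, so that the immature neurons did not lie below all genes at both ages. These medians cover the members with enough UMIs and not all of them. A gene could enter by its P5 count alone, as did Dlk1 (106, 0 and 0 UMIs) and Mest (47, 4 and 2) in VSMC-like cells. Impact entered there by its adult counts, and Peg3 (5, 23 and 8) was left out. The same filter held for all genes, and the medians are a description that leans on which members entered.

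Dlk1 and Meg3, the ligand gene and the noncoding RNA of the chromosome 12 cluster, were high in vascular wall cells at P5 and far lower in both adult libraries. VSMC-like cells had 106 Dlk1 UMIs at P5, or 223.9 CPM (interval 183.3 to 270.8), and 0 UMIs at both adult ages. Set against 3 UMIs, the level that a count of 0 allows, the level was at least 110-fold lower at 12w and at least 59.5-fold lower at 24w. In PC-like cells 91, 6 and 0 UMIs were counted in the order of age, or 49.3, 1.29 and 0.0 CPM. The ratio at 12w was 0.0262 (0.00936 to 0.0592), and the level at 24w was at least 59.5-fold lower. An unnamed cluster led by Tubb6, Col4a2 and Col4a1 held another 89 Dlk1 UMIs at P5. Against P5 cells that had Xist and no Y-linked UMI, as in the 12w library, the ratio in PC-like cells was 0.0971. It was 0.0446 over cells with at least 2000 UMIs and 0.0401 in the largest cluster.

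In NSC-like cells Dlk1 had 2 UMIs at P5 and 0 at each later age, which allows up to 2.17 CPM at 12w and 8.05 CPM at 24w. No neural class had more than 9 Dlk1 UMIs at any age, so a change there was not detectable at this depth. After each cell was thinned to 1000 UMIs, 20.9% of VSMC-like cells at P5 had a Dlk1 UMI, 56.7% unthinned, with a median of 7060 UMIs. Endothelial-like (EC-like) cells, with a median of 7167 UMIs, had 0 Dlk1 UMIs at P5, though there were only 12 such cells. FB-like cells, named from fibroblast collagen genes, also had 0 Dlk1 UMIs, in 18 cells at P5. Summed FB markers in VSMC-like cells were 342.2, 159.1 and 116.7 CPM, with 2, 4 and 6 of 6 markers detected, and their part in the Dlk1 level was not tested further. The genes whose levels ran most like those of Dlk1 over 25 groups of class and age were Fam162b (Pearson's r 0.913), Actg2 (0.847), a smooth muscle actin, and Adamts16 (0.824). These groups come from 3 libraries, so the correlation is a description.

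**Figure D1:**
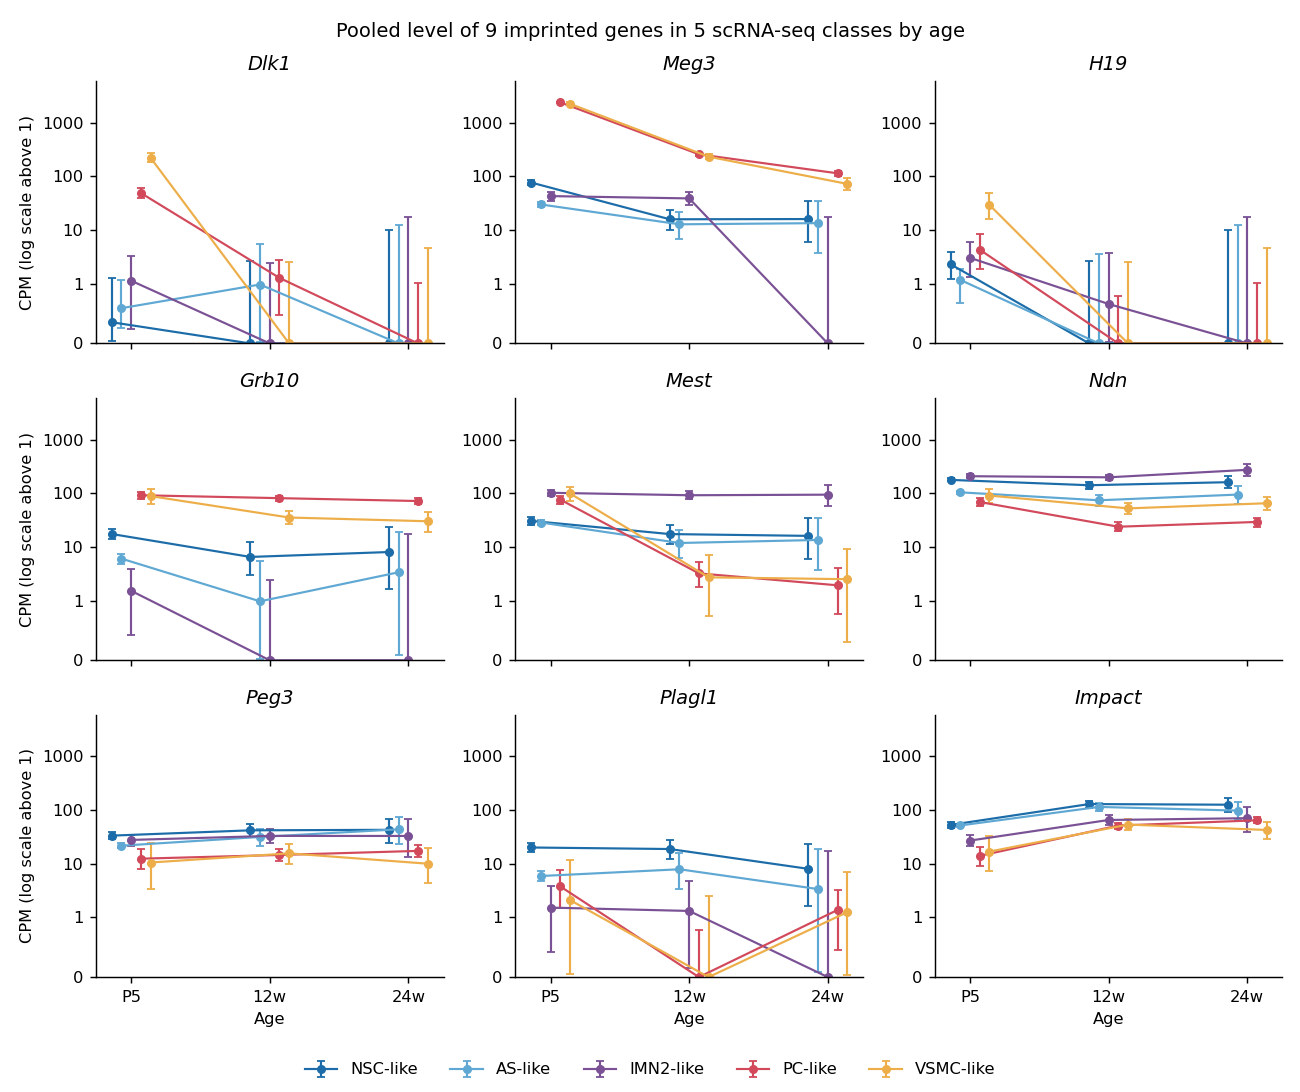
Level of 9 members in CPM (axis log above 1 and linear below) at P5, 12w and 24w in 5 classes of sorted DG cells, 1 library per age, with bars for the 95% counting interval. Dlk1 is near the floor outside PC-like and VSMC-like cells, and Impact lies higher at both adult ages in NSC-like, PC-like and VSMC-like cells.

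At P5 Meg3 stood at 2404 CPM in PC-like cells (2334 to 2476) and at 2258 CPM in VSMC-like cells (2125 to 2398), and these intervals overlapped. Next came oligodendrocyte precursor-like (OPC-like) cells at 1009 CPM (981.6 to 1038), the 18 FB-like cells at 418.2 CPM (316.8 to 541.9), oligodendrocyte-like (OL-like) cells at 283.7 CPM (251.7 to 318.7), ependymal-like (EPD-like) cells at 186.6 CPM and interneuron-like (IN-like) cells at 173.2 CPM (105.8 to 267.5). The intervals of FB-like and OL-like cells overlapped, and that of IN-like cells overlapped those of OL-like and EPD-like cells. NSC-like cells had 77.1 CPM (70.0 to 84.7) and AS-like cells 30.1 CPM (27.3 to 33.2), and the NPC-like, IMN1-like, IMN2-like, EC-like and microglia-like cells lay between 13.3 and 47.4 CPM.

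The Meg3 level of PC-like cells was 2404, 258.8 and 114.6 CPM in the order of age, from 4442, 1205 and 415 UMIs. The ratios to P5 were 0.108 (0.101 to 0.115) and 0.0477 (0.0430 to 0.0527). In VSMC-like cells the level was 2258, 233.9 and 72.8 CPM, with ratios of 0.104 and 0.0322, while summed OPC markers stood at 583.0, 163.2 and 188.2 CPM there, with 7, 5 and 5 of 7 detected. The thinned share of PC-like cells with a Meg3 UMI was 79.1%, 18.3% and 9.85%, unthinned 95.8%, 28.3% and 16.5%, at median depths of 4868, 1845.5 and 2027 UMIs. In EC-like cells the thinned share was 0%, 0% and 0.917%, so the adult share in PC-like cells lay above that of a class with little Meg3.

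The largest PC-like cluster differed between ages. The cluster led by Kcnj8, Vtn and Art3 held 253 of 358 cells at P5, and the cluster led by Spp1, Atp13a5 and Rgs4 held 1075 cells at 12w and 844 at 24w, but 21 at P5. Within the first, Meg3 was 2405, 261.6 and 105.3 CPM, and within the second 2404, 238.3 and 122.9 CPM, so the difference was as large within each. Summed OPC markers in PC-like cells were 617.5, 201.9 and 220.0 CPM, with all 7 markers detected at each age, against 6872 CPM in OPC-like cells at P5. The part of OPC transcripts in the Meg3 difference of both vascular classes was not tested. Summed PC markers in PC-like cells stood at 16590, 34080 and 37290 CPM in the order of age. Summed VSMC markers in VSMC-like cells stood at 12030, 18690 and 18340 CPM. The part of these shifts in the members' differences was not tested.

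**Figure D2:**
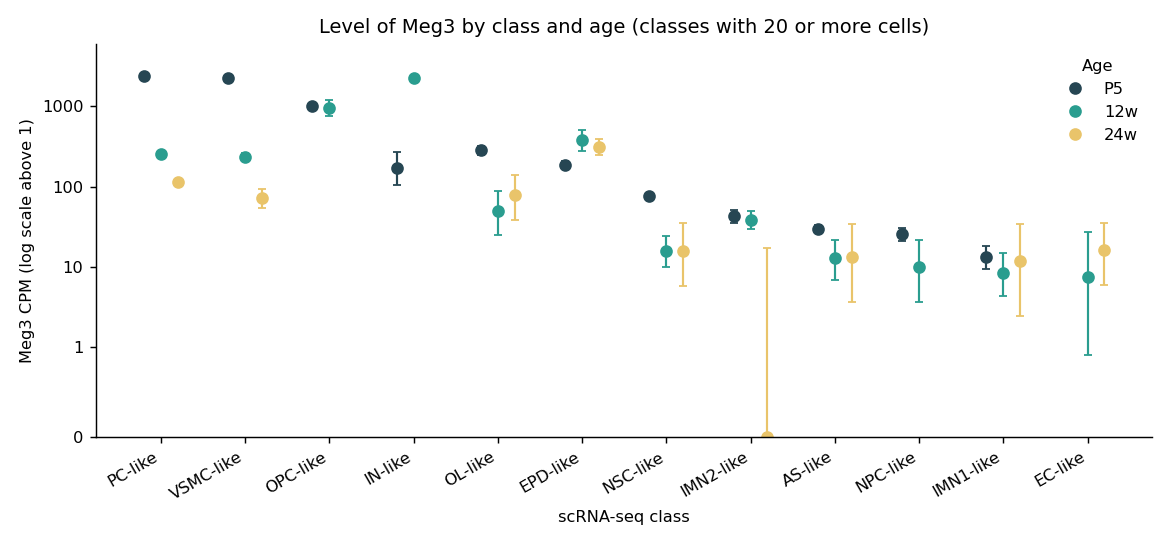
Meg3 level in CPM (axis log above 1 and linear below) at P5, 12w and 24w in each class that had 20 or more cells at that age, with bars for the 95% counting interval. PC-like and VSMC-like cells are highest at P5 and lie below OPC-like cells at 12w, whereas IN-like and EPD-like cells lie higher at 12w than at P5.

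In NSC-like cells Meg3 had 433, 22 and 6 UMIs, or 77.1, 15.9 and 16.1 CPM. The ratios were 0.207 (0.128 to 0.317) and 0.209 (0.0762 to 0.458), and Meg3 was the member that was lower in this class. In the cluster led by Fos, Cyr61 and Gfap, the level was 108.5, 14.4 and 14.1 CPM, and in the cluster led by 1500015O10Rik, Gdf10 and Frzb 32.3 CPM at P5 and 16.4 CPM at 12w. Summed OPC markers in NSC-like cells moved with it, at 495.3, 37.7 and 67.1 CPM with 7, 6 and 2 of 7 markers detected. In AS-like cells, OPC markers stood at 1077 CPM at P5 with a Meg3 level of 30.1 CPM. The part of OPC transcripts in the Meg3 level of NSC-like cells was not tested further. The RNA of empty droplets would account for 12.3 of the 15.9 CPM at 12w and 6.77 of the 16.1 CPM at 24w. With that share taken off the adult levels alone, the ratios were 0.0519 and 0.117. Free RNA could not be estimated at P5, so the P5 level was left as counted.

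The rule was applied to the NSC lineage, AS-like cells and the vascular wall classes, by choice and not by a minimum of cells, and Meg3 took different courses among classes left outside it. OPC-like cells had 1009, 960.3 and 609.4 CPM, with ratios of 0.951 (0.756 to 1.18) and 0.604 (0.338 to 0.997), the latter from 15 UMIs. IN-like cells had 20, 501 and 15 UMIs in 24, 70 and 2 cells, or 173.2, 2260 and 1447 CPM, and 50% of the 2 cells had a Meg3 UMI. EPD-like cells had 186.6, 385.1 and 315.4 CPM. OL-like cells had 284, 11 and 11 UMIs, or 283.7, 49.9 and 78.0 CPM, with ratios of 0.176 (0.0867 to 0.319) and 0.275 (0.136 to 0.50). Their summed OL markers stood at 14190, 51510 and 39160 CPM, and the part of this in the Meg3 difference was not tested. FB-like cells had 57, 0 and 0 UMIs in 18, 11 and 9 cells. The genes whose levels ran most like those of Meg3 were Mtcl1 (r 0.745), Spon2 (0.728) and Galnt10 (0.723).

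The third noncoding RNA, H19, was sparse. VSMC-like cells had 14 H19 UMIs at P5, or 29.6 CPM (16.2 to 49.6), and 0 at both adult ages, which is at least 14.5-fold and at least 7.85-fold lower. With under 20 UMIs it did not enter the count of lower genes. NPC-like cells, which hold only a part of the cycling progenitors, had 25 UMIs at P5, or 5.39 CPM, and 0 at the later ages. The interval of the ratio reached 1.23 at 12w and 6.94 at 24w, so that a difference was not detectable within this class. A cluster led by Hist1h2ap, 2810417H13Rik and Rrm2, nearest to NPC by its markers but left unnamed, was not counted in it. That cluster had 28, 1 and 0 H19 UMIs in 642, 160 and 28 cells, or 5.84, 0.904 and 0.0 CPM.

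Mest, the hydrolase family gene, was lower in the vascular classes and did not pass the rule in any neural class. In PC-like cells it had 141, 15 and 7 UMIs, or 76.3, 3.22 and 1.93 CPM, with ratios of 0.0422 (0.0230 to 0.0720) and 0.0253 (0.010 to 0.0536). In VSMC-like cells the levels were 99.3, 2.72 and 2.51 CPM, with ratios of 0.0274 and 0.0253. In EC-like cells 21 Mest UMIs came from 12 cells at P5, against 0 and 1 UMIs in the adult libraries. Empty-droplet RNA would account for 92.2% and 114% of the adult Mest level of PC-like cells, so an adult level above free RNA was not shown there. In VSMC-like cells it would account for 99.9% and 75.7%. In NPC-like cells Mest stood at 109.0, 73.3 and 56.5 CPM and in IMN2-like cells, the later immature neurons, at 102.2, 92.0 and 94.3 CPM, with ratios in the latter of 0.900 (0.728 to 1.11) and 0.922 (0.554 to 1.45). In NSC-like cells it was 30.6, 17.4 and 16.1 CPM, and the interval of the ratio at 24w reached 1.17. The levels of Yeats4 (r 0.870), H1fx (0.863), a linker histone gene, and Hmgb3 (0.861), a chromatin protein gene, ran most like those of Mest.

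Grb10, the receptor adaptor, passed the rule in VSMC-like cells and in no other of the 7 classes to which it was applied, and the difference between classes was not tested. In VSMC-like cells it was 88.7, 35.4 and 30.1 CPM from 42, 52 and 24 UMIs, with ratios of 0.399 (0.260 to 0.614) and 0.339 (0.197 to 0.574). In PC-like cells it was 92.0, 81.2 and 71.8 CPM, with ratios of 0.882 (0.734 to 1.06) and 0.780 (0.641 to 0.952). NPC-like cells had 73, 0 and 1 Grb10 UMIs, and the interval of the ratio reached 0.40 at 12w and, from 16 cells, 3.44 at 24w. In NSC-like cells the level was 17.5, 6.52 and 8.05 CPM, and the interval at 24w reached 1.39.

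The MAGE family gene Ndn was present in every neural class at each age, apart from IN-like cells at 24w, of which there were 2. IMN1-like cells, the earlier immature neurons, had 224.6, 243.2 and 294.4 CPM, NPC-like cells 176.3, 151.6 and 160.1 CPM and NSC-like cells 177.7, 141.3 and 161.0 CPM. The ratios in NSC-like cells were 0.795 (0.678 to 0.928) and 0.906 (0.686 to 1.18). The highest level was 298.2 CPM (283.2 to 313.8) in OPC-like cells at P5, and its interval overlapped those of IMN1-like cells (231.2 to 369.6) and IMN2-like cells (207.6 to 353.4) at 24w, among others. In PC-like cells Ndn was lower, at 68.7, 23.8 and 29.3 CPM, with ratios of 0.347 (0.266 to 0.451) and 0.426 (0.326 to 0.555). Free RNA would account for 66.5% and 54.9% of the adult level there. With it taken off the adult levels alone, and P5 left as counted, the ratios were 0.131 and 0.224. The summed OPC markers of PC-like cells given beside Meg3, at 617.5, 201.9 and 220.0 CPM, were lower at the same ages, and their part in the Ndn difference was not tested.

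Of the zinc finger genes, Peg3 did not differ with age by the rule in any of the 7 classes. It stood at 33.5, 42.0 and 42.9 CPM in NSC-like cells, with ratios of 1.26 (0.919 to 1.69) and 1.28 (0.718 to 2.14), and at 21.8, 31.6 and 43.9 CPM in AS-like cells. OPC-like cells had 61.9 CPM at P5. Plagl1 was 20.1, 18.8 and 8.05 CPM in NSC-like cells from 113, 26 and 3 UMIs and reached 34.9 CPM in EPD-like cells at P5. Levels most like those of Peg3 were found for Cbarp (r 0.859), Csf2ra (0.845), a cytokine receptor subunit, and Tusc3 (0.832), part of the machinery of protein glycosylation.

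Impact, the regulator of Gcn2, ran the other way. NSC-like cells had 298, 179 and 47 Impact UMIs, or 53.1, 129.7 and 126.1 CPM, and the ratios were 2.44 (2.02 to 2.95) and 2.38 (1.71 to 3.24). The thinned share of NSC-like cells with an Impact UMI was 5.16%, 13.0% and 10.3%, unthinned 20.5%, 35.3% and 34.6%. In EC-like cells the thinned share was 0%, 5.62% and 2.75%. That class had 12, 89 and 109 cells and an Impact level of 23.6, 34.2 and 33.0 CPM, so it is not a class without Impact. PC-like cells had 14.1, 51.6 and 64.6 CPM, with ratios of 3.66 (2.44 to 5.72) and 4.59 (3.05 to 7.18). VSMC-like cells had 16.9, 53.7 and 42.7 CPM, with ratios of 3.18 and 2.52 that rested on 8 UMIs at P5. With the median ratio of all genes set to 1 these were 2.70 and 2.04, and against P5 cells of like sex 6.19 and 1.36, and neither setting passed the rule. In AS-like cells the ratios were 2.21 (1.80 to 2.69) and 1.89 (1.26 to 2.74), and in IMN2-like cells 2.42 (1.77 to 3.33) and 2.61 (1.39 to 4.6), the latter short of 20 UMIs at 24w. Summed PC markers in NSC-like cells were 270.1, 1203 and 2211 CPM, with 7 of 7 detected at each age. Impact in PC-like cells stood at 51.6 and 64.6 CPM in the adult libraries, below its level in NSC-like cells, and free RNA would account for 3.58% and 3.78% of the Impact level of NSC-like cells. The part of other cells' transcripts in the Impact difference was not tested further. The levels of Psap (r 0.949), a lysosomal protein gene, Izumo4 (0.931) and Leng8 (0.909) ran most like those of Impact.

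**Figure D3:**
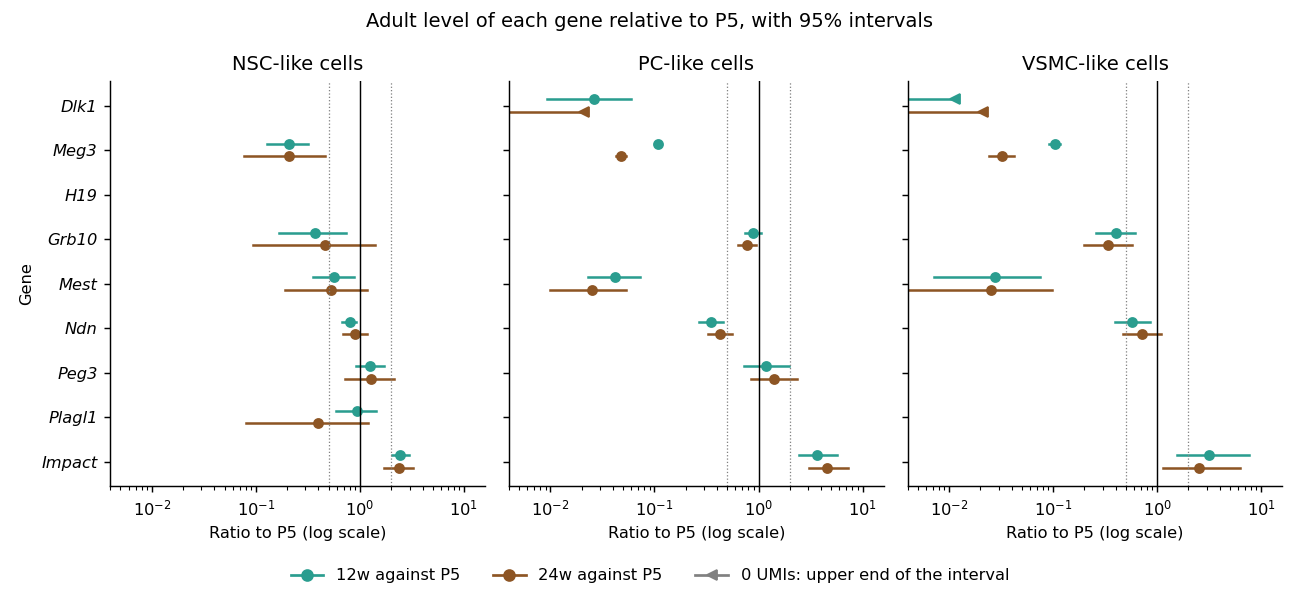
Ratio of the level at 12w and at 24w to that at P5 (log axis) for members with at least 20 UMIs where higher, in NSC-like, PC-like and VSMC-like cells, with bars for the 95% counting interval, triangles at its upper end where no UMI was counted, and dotted lines at 2-fold. Meg3 lies at 0.108 and 0.0477 in PC-like cells, Mest lies at 0.0422 and 0.0253 there, and Impact lies above 1 in all 3 classes.

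Other imprinted genes were counted by the same rule. Of 44 such genes, 24 had enough UMIs in NSC-like cells, and 1 was higher and 0 were lower. It was Nap1l5, at 54.3, 220.3 and 297.9 CPM, with ratios of 4.06 and 5.49. In AS-like cells 2 of 26 were higher, in PC-like cells 2 of 23 were higher and 4 lower, and in VSMC-like cells 1 of 12 was higher and 1 lower. Among NPC-like, IMN1-like and IMN2-like cells, 0 passed. Of the genes lower in PC-like cells, Igf2, the fetal growth factor, stood at 184.0, 22.6 and 49.97 CPM and Mirg, a noncoding RNA of the Dlk1 cluster, at 15.7, 0.859 and 0.276 CPM. Both were chosen after their values were seen.

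Accessibility of the gene starts was measured by scATAC-seq in 8788, 12638 and 6041 cells at P5, 12w and 24w. Cells took class names transferred from scRNA-seq, and NSC-labelled, AS-labelled and PC-labelled cells were used, with 353, 460 and 114, 1380, 227 and 85, and 185, 6541 and 4450 cells. Merged peak regions that touched the window from 2 kb before to 0.5 kb after each start were counted whole, if a peak was present at every age. Their cut-site counts were halved to fragments and scaled to fragments in every 1000000 of that class (FPM). A start counted as different at 1.5-fold or more at both ages, with the interval of each ratio clear of 1 and at least 20 fragments where higher. The H19 region, chr7:142577976-142582373, ran upstream beyond this window, and the Mest region, of 6270 bases, was shared with Gm44296. Regions at all annotated transcript starts of a gene were summed. Ndn had no region there. The region of Rian, at chr12:109620238-109620609, lay at an internal start within the gene. Rian, with 2.5, 38 and 18 fragments in NSC-labelled cells, or 0.425, 6.05 and 6.11 FPM, fell short of 20 fragments at 24w and so did not enter the counts, at ratios of 14.2 (4.13 to 89.1) and 14.4 (3.85 to 93.7). In AS-labelled cells it had 3.5, 9 and 4.5 fragments, with ratios of 16 (4.25 to 79.4) and 14.9 (2.88 to 85.8), and in PC-labelled cells 0, 10.5 and 6.5 fragments. For NSC-labelled cells 2.14% of starts were higher and 7.65% lower, for AS-labelled cells 1.71% and 7.60%, and for PC-labelled cells 4.01% and 15.0%. The median ratio over all starts was 0.892 and 0.9 in NSC-labelled cells, 0.946 and 0.962 in AS-labelled cells and 0.820 at both ages in PC-labelled cells. The ratios of single starts were not scaled to these medians.

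In PC-labelled cells the Meg3 start, the region of the promoter printed above and of a downstream start, had 30.3, 7.95 and 5.70 FPM, with ratios of 0.263 (0.205 to 0.341) and 0.188 (0.145 to 0.247). The Mest start had 53.0, 27.3 and 27.0 FPM, with ratios of 0.515 (0.430 to 0.621) and 0.510 (0.425 to 0.615). Both starts were lower, as were 15.0% of all starts. Summed over their whole genes, PC markers stood at 919.5, 2272 and 2509 FPM in PC-labelled cells, and the part of this shift was not tested. Dlk1 had 6.71, 0.926 and 0.773 FPM, with ratios of 0.138 and 0.115, and its 16.5 fragments at P5 kept it outside the rule. Impact RNA was higher in adult PC-like cells, whereas its start lay at 78.0, 72.9 and 76.3 FPM, with ratios of 0.934 (0.808 to 1.09) and 0.977 (0.845 to 1.14). Peg3 had 115, 117 and 135 FPM.

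In NSC-labelled cells the Grb10 start was lower, at 15.3, 10.2 and 3.56 FPM, with ratios of 0.666 (0.475 to 0.927) and 0.233 (0.110 to 0.442), the former just inside 1.5-fold and the latter from 10.5 fragments. Over the whole Grb10 gene, scaled to the sum over genes, the values were 43.4, 42.4 and 27.4 FPM. They went the other way in AS-labelled cells, at 36.9, 56.9 and 51.2 FPM, and in PC-labelled cells, at 61.1, 132 and 142 FPM. The Grb10 start did not pass the rule in either of those classes. In NSC-labelled cells the Meg3 start had 17.0, 16.2 and 18 FPM, with ratios of 0.955 (0.718 to 1.27) and 1.06 (0.743 to 1.49). The Meg3 RNA of NSC-like cells was lower. The Impact start had 65.6, 65.7 and 71.7 FPM, with ratios of 1.0 (0.869 to 1.15) and 1.09 (0.920 to 1.30), while its RNA was higher. In AS-labelled cells the Meg3 start was higher, at 8.98, 14.6 and 15.8 FPM, while the Meg3 RNA of AS-like cells stood at 30.1, 12.85 and 13.5 CPM. The H19 start of AS-labelled cells was lower, at 30.5, 12.0 and 12.1 FPM, with ratios of 0.393 (0.263 to 0.567) and 0.396 (0.227 to 0.645).

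**Figure D4:**
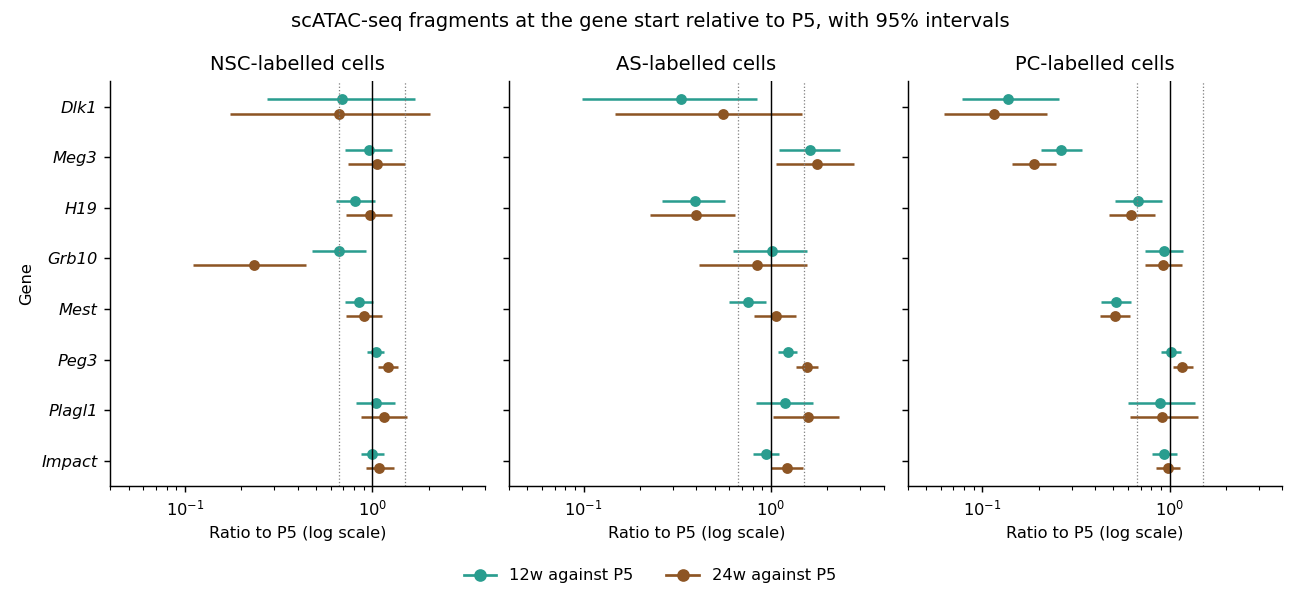
Ratio of scATAC-seq fragments at the gene start at 12w and at 24w to P5 (log axis) for the members in NSC-labelled, AS-labelled and PC-labelled cells, 1 library per age, with bars for the 95% counting interval and dotted lines at 1.5-fold. Meg3 lies at 0.263 and 0.188 in PC-labelled cells and above 1 in AS-labelled cells, and Impact lies near 1 in all 3.

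In cultured NSCs 4 libraries with TPM were used, with 20040076 to 21493347 recovered reads each. The libraries titled Ctrl_3, Setd8KD_1 and Setd8KD_2 carried control values and the library titled Setd8KD_3 knockdown values, so the titles of 2 libraries go against their contents. Setd8, the methyltransferase that places the first methyl group on lysine 20 of histone H4, had 154.2, 143.1 and 143.2 TPM in the libraries used as controls and 36.4 TPM in the library titled Setd8KD_3. Its log2 fold change was −1.98 ± 0.08 (SE; adjusted p = 0.00399, limma). With 1 knockdown library, the fit takes its spread from the 3 controls, and nothing in the labels shows that these came from separate cultures. Of 12703 genes tested, 6.56% were higher and 7.95% lower with Setd8 KD at 1.5-fold and an adjusted p under 0.05.

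Of the 10 members 5 were tested and limma called 0, with 2 at an unadjusted p under 0.05, whereas edgeR and DESeq2 each called 1 lower, Plagl1. It was 1 of 6 members with an adjusted p by edgeR, which called 8.43% of all genes higher and 8.90% lower, and 1 of 5 by DESeq2, which called 6.17% higher and 7.79% lower. Dlk1, Meg3 and Rian had 0 reads in all 4 libraries, Grb10 had 8, 3 and 10 reads in the controls and 11 with Setd8 KD, and H19 had 4, 7 and 6 reads and 7 with Setd8 KD. Mest, at 1289, 1168 and 1184 TPM in the controls and 1070 TPM with Setd8 KD, was by far the most abundant member per length, with a log2 fold change of −0.18 ± 0.09 (SE; adjusted p = 0.177, limma). It shares 912 exon bases with Copg2 on the opposite strand, and the strand setting of the counting was not given. Ndn had 47.9, 47.5 and 46.7 TPM against 41.8 TPM (adjusted p = 0.108, limma), and Peg3 18.4, 24.7 and 23.1 TPM against 23.8 TPM (adjusted p = 0.641, limma).

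Impact and Plagl1 passed the adjusted p but not 1.5-fold. Of the 5 members tested, all but Peg3 lay outside the range of the controls, as did 82.0% of all genes tested. Impact had 54.3, 53.3 and 47.0 TPM in the controls and 73.1 TPM with Setd8 KD, a log2 fold change of 0.50 ± 0.11 (SE; adjusted p = 0.0279, limma). Plagl1 had 5.40, 4.77 and 4.595 TPM and 3.30 TPM with Setd8 KD, a log2 fold change of −0.46 ± 0.10 (SE; adjusted p = 0.0302, limma). On the reads recovered from the TPM, Plagl1 changed by −0.59 and passed 1.5-fold (adjusted p = 0.00812 by edgeR and 0.0455 by DESeq2). The adjusted p by limma was over 0.05 for Impact without Setd8KD_1 (0.0584) and with no filter on low TPM (0.16), and for Plagl1 without Setd8KD_1 (0.0671), without Setd8KD_2 (0.0519) and with no filter (0.159). Of the 12703 genes, 6167 had an unadjusted p under 0.05. The median log2 fold change of the members tested was −0.18, and that of all genes was 0.00.

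**Figure D5:**
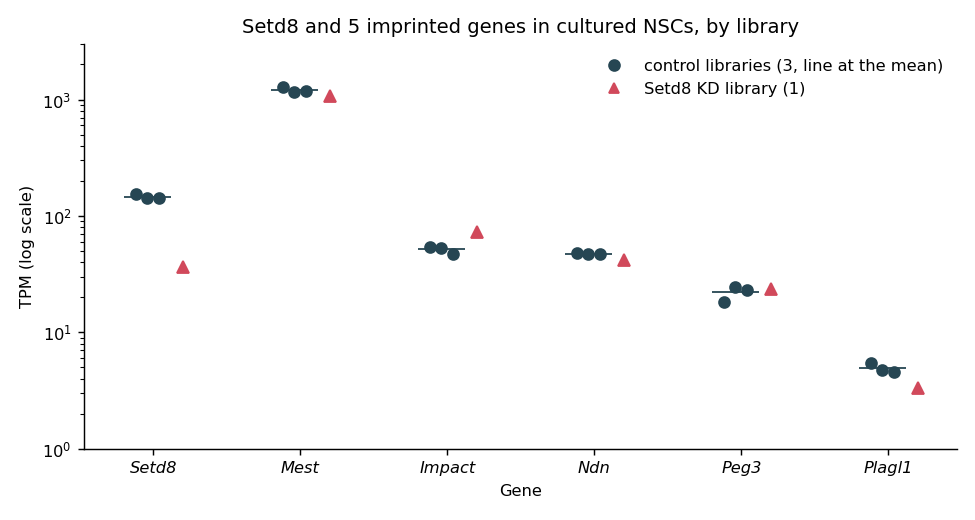
TPM (log axis) of Setd8 and the 5 members tested in cultured NSCs, with circles and a line at the mean for the 3 libraries used as controls and a triangle for the library titled Setd8KD_3. Setd8 lies at 36.4 TPM with Setd8 KD against 143.1 to 154.2 TPM, and Impact lies above and Plagl1, Mest and Ndn below their controls, and 82.0% of all genes tested lay outside the 3 controls in the same library.

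Among 45 other imprinted genes 27 were tested, and 5 were higher and 1 lower with Setd8 KD. Peg13, a noncoding RNA, had 13.8, 13.1 and 13.5 TPM in the controls and 32.5 TPM with Setd8 KD, a log2 fold change of 1.21 ± 0.07 (SE; adjusted p = 0.00399, limma). Blcap was at 89.5, 82.6 and 87.3 TPM against 158.9 TPM (log2 fold change 0.87), Igf2r, the receptor that clears Igf2, at 12.1, 14.6 and 16.5 TPM against 26.1 TPM (0.83), and Peg10, a gene derived from a retrotransposon, at 259.3, 249.0 and 239.7 TPM against 403.9 TPM (0.69). The fifth higher gene, Igf2, was chosen after its values were seen and had 1.204, 1.22 and 0.883 TPM against 2.28 TPM. Ube3a, a ubiquitin ligase, fell from 27.3, 28.7 and 28.4 TPM to 17.2 TPM (−0.67). Peg13 lies within Trappc9 and Blcap overlaps Nnat, so that reads could be shared between them. Nap1l5, higher with age in NSC-like cells, had 94.3, 100.2 and 85.5 TPM in the controls and 99.4 TPM with Setd8 KD.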

How the data were processed

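EGFP-positive DG cells were profiled by scRNA-seq and scATAC-seq at P5, 12w and 24w (1 library each), and cultured NSCs by RNA-seq. The members and lists were chosen with earlier results of these data known. The authors made the deposited UMI counts with Cell Ranger 2.2.0 on mm10 and the deposited scATAC-seq counts per peak with Cell Ranger ATAC. The authors trimmed RNA-seq reads with Trimmomatic, aligned them with STAR to mm10 and deposited TPM. TPM scales each library to the same total, and the strand setting of the counting was not given in the sources used here.

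The filters on cells were a minimum of 1000 UMIs and 500 genes and a mitochondrial share of no more than 10%, after which 932, 80 and 3 doublets marked by Scrublet were removed. A caller that marks 0.107% of cells, as at 24w, may have missed some. The P5 table lists 14129 selected barcodes, each with 1495 UMIs or more, so free RNA could be estimated only at 12w and 24w, from barcodes with 10 to 100 UMIs. Cells were clustered with Seurat 5.3.0 at resolution 0.8, and unnamed clusters were left out of the classes. Intervals were exact Poisson for levels and exact conditional binomial for ratios, and UMIs and fragments in them are counting error only. scATAC-seq cells had over 3000 and under 100000 counts and a transfer score of at least 0.5. Classes with at least 50 cells at each age and their own markers highest at each age were used, which left out NPC, OPC, VSMC, IMN1 and IMN2.

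RNA-seq was fitted with limma 3.58.1 on log2(TPM + 1) over genes with a mean of at least 1 TPM, with Benjamini-Hochberg adjustment, and fold changes are on that scale. Libraries were grouped by matching their TPM with gene values that the study gives by group, within a relative tolerance of 0.0001. All 170 of 170 genes matched a control value for Ctrl_3, Setd8KD_1 and Setd8KD_2, and a knockdown value for Setd8KD_3. TPM and lengths gave whole reads for 100% of values within 0.05 reads. The rule for UMIs, in NSC-like and PC-like cells, and the limma fit were run on simulated data, and the other methods were not. Named genes were the members, Setd8, other imprinted genes called in NSC-like cells or RNA-seq (at most 4 in each direction by size) and, for 5 members, the 3 likest genes by log2(CPM + 10). Alternatives included edgeR 4.0.16 and DESeq2 1.42.0. bedtools 2.31.1 merged peaks. The samples titled Ctrl_1 and Ctrl_2 carried no TPM and gave only the gene symbols and the gene lengths. The remaining samples of the series were not used here.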

Additional observations from a re-analysis of the deposited data

Results flagged for a closer look

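Meg3 moved in opposite directions in different cells of the same libraries. Its ratio to P5 was 13.1 at 12w and 8.36 at 24w in IN-like cells and 2.06 and 1.69 in EPD-like cells, whereas it was 0.108 and 0.0477 in PC-like cells. The IN-like values rested on 24 cells at P5 and on 2 at 24w. Only 50% of those 2 cells had a Meg3 UMI, so the ratio at 24w carries little weight. At the Meg3 start the scATAC-seq ratio was 1.62 (interval 1.10 to 2.34) and 1.76 (1.06 to 2.77) in AS-labelled cells. It was 0.263 and 0.188 in PC-labelled cells. Meg3 RNA in AS-like cells was not higher in the adult libraries, at 30.1, 12.85 and 13.5 CPM from 407, 13 and 4 UMIs. Free RNA would account for 95.6% and 56.1% of that adult RNA level. With 1 library per age and assay, the difference between classes was not tested.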

How the results depend on the processing

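Of 446 alternative values for 54 results, 82 could not differ from the reported value, since only a threshold changed or the class was 1 cluster. Of the other 364, 329 were scored as unchanged, 14 as weaker, 21 as stronger and 0 as reversed. A count was scored as unchanged if equal to the reported count or, with neither at 0, within 1.5-fold of it. A fold change with Setd8 KD could be scored as reversed only for a gene called in the main fit. Of the genes followed this was Setd8 alone, so the absence of reversals there says little. Where free RNA was subtracted at 12w and 24w and not at P5, 1 member was lower in AS-like cells (Meg3). At 1.5-fold, 1 was higher in AS-like cells (Impact), and with 5 UMIs required 1 was higher in IMN2-like cells (Impact), and 5 in place of 4 were lower in PC-like and in VSMC-like cells, with H19 added in both. At clustering resolution 0.4, 1 member was lower in NPC-like and 1 in IMN1-like cells (Meg3 in each). In VSMC-like cells 0 were higher when the median ratio was set to 1 or P5 cells of like sex were used. With 12w alone, an alternative chosen after seeing the data, 2 members were lower in NSC-like, 3 in AS-like, 2 in NPC-like and 1 in IMN1-like cells, and 1 was higher in AS-like and 1 in IMN2-like cells. At 2-fold in scATAC-seq, 0 starts were lower in NSC-labelled cells, 0 higher in AS-labelled cells and 1 lower in PC-labelled cells (Meg3), and over all merged regions 3 in place of 2 were lower in PC-labelled cells, with H19 added. With no filter on low TPM, 362 genes were higher and 465 lower with Setd8 KD in place of 833 and 1010. Without the fold threshold, 2204 were higher and 2322 lower, with 1 member higher (Impact) and 1 lower (Plagl1). By edgeR and by DESeq2, 1 member was lower (Plagl1). With the groups of the sample titles, limma called 0 genes higher and 0 lower, 122 had an unadjusted p under 0.05, and the log2 fold change of Setd8 was −0.76. The cause of these shifts was not tested. Leaving out each control library in turn gave 791 to 858 genes higher and 969 to 1048 lower, with 0 members called, though the adjusted p of Impact ran from 0.0379 to 0.0584 and that of Plagl1 from 0.0337 to 0.0671. Resolution 0.4 was not run for PC-like and VSMC-like cells, which were named in the first round of clustering. No paired analysis was possible because the groups with TPM shared fewer than 2 replicate numbers. Depth limits the neural classes most at 24w, where 3 UMIs stand for 28.3 CPM among NPC-like and 8.05 among NSC-like cells, and the vascular classes most at P5, with 1.62 CPM among PC-like and 6.34 among VSMC-like cells.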
